A study of Mus musculus with 24 samples.

Results

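The transcripts described here are 9 genes grouped as atrial-type: Bmp10, Sln, Myl7, Myl4, Mybphl, Uts2b, Mlana, Tmem163 and Lrrn4. They were found by matching their symbols to the Ensembl identifiers of the deposited count table, in which they are 9 of 41388 genes. They were chosen by how their levels differed between EAM and control hearts and among hearts in these same 24 samples. Their levels, fold changes and counts of calls are therefore a description, with no test, and support nothing about the group.

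RNA was sequenced from a portion of each heart of male wild-type Balb/c mice (BALB/cAnNCrl in the methods of the study) in experimental autoimmune myocarditis (EAM), a model in which immunity against heart myosin inflames the myocardium. EAM mice, immunized at 8 to 10 weeks of age, received a myosin heavy chain peptide in SCFA (supplemented complete Freund's adjuvant) on days 0 and 7, with pertussis toxin (PTX) on day 0. Control mice received PBS in place of the peptide, with the same SCFA and PTX, so that no group was untreated. Hearts were taken at day 10, 15 or 21 (D10, D15 and D21), 4 EAM and 4 control hearts at each. The study states that hearts for RNA were chosen as far as possible to show inflammation. It also states that no EAM mouse at D10 had raised heart leucocytes or cardiac troponin I. Neither the labels nor the study's methods name the portion or chamber. The labels name separate samples, 1 library each, and leave the meaning of the replicate numbers unstated.

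In the mammalian heart, atrial and ventricular cardiomyocytes build their contractile apparatus from partly different genes. Myl7 and Myl4 encode the atrial regulatory and essential myosin light chains, whose ventricular counterparts are Myl2 and Myl3. Sln encodes sarcolipin, a small inhibitor of the SERCA calcium pump that in the mouse heart is mostly atrial, as phospholamban (Pln) is mostly ventricular. Mybphl encodes a myosin-binding protein H-like protein of the atria and conduction system. Bmp10 encodes a secreted ligand of the BMP family that in the adult mouse is made mainly by the right atrium and signals through the endothelial receptor Acvrl1. Uts2b encodes a urotensin 2-related peptide, Mlana a melanosomal protein best known from pigment cells, Tmem163 a zinc transporter of membranes, and Lrrn4 a leucine-rich repeat membrane protein.

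Expression is given as CPM, the usual depth-scaled read count, with scaling by TMM, which corrects for differences in library composition. Total counts per heart were between 15814863 and 24980864, with a median of 19469782, and 3 reads correspond to between 0.105 and 0.2 CPM. Several hearts stood apart from their group and are named before the results. D15 control 4 was the lowest of the D15 controls for 9 of 9 transcripts and within the range of the D10 controls for 6. D10 EAM 3 lay below D10 EAM 1, 2 and 4 for 8 of 9, and D21 EAM 3 lay above the other D21 EAM hearts for the light chains and Sln. The 4 D21 EAM libraries also carry a library code different from the code shared by the other 20, so code and EAM at D21 cannot be told apart.

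On GRCm38, in the GENCODE M21 annotation, the genes lie on 8 chromosomes and all are protein-coding. Bmp10 lies on chromosome 6 at 87428994 to 87437677 (+ strand) and Sln on chromosome 9 at 53850164 to 53854560 (+). Myl7 lies at 5896637 to 5898782 (-) and Myl4 at 104550663 to 104595753 (+), both on chromosome 11. Mybphl is on chromosome 3 at 108364911 to 108380057 (+), Uts2b on chromosome 16 at 27353322 to 27370239 (-) and Mlana on chromosome 19 at 29697824 to 29708634 (+). Tmem163 is on chromosome 1 at 127486546 to 127679548 (-) and Lrrn4 on chromosome 2 at 132868305 to 132880891 (-). Myl4 overlaps 4 annotated genes of the opposite strand, Mybphl 1 and Tmem163 the gene Mgat5. The library kit marks strand, but no source used here states whether counting used it, so reads of those overlaps cannot be told apart.

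The 250 bases before the gene start are shown for 4 transcripts, Bmp10 and 3 contractile genes, because their levels are set against each other heart by heart. RefSeq entries (GRCm38.p6) were matched for 7 of 9 transcripts, all but Sln and Mlana. For Tmem163 and Lrrn4 the RefSeq start differs from that of GENCODE. Capitals mark letters matching a searched motif on either strand.
Bmp10: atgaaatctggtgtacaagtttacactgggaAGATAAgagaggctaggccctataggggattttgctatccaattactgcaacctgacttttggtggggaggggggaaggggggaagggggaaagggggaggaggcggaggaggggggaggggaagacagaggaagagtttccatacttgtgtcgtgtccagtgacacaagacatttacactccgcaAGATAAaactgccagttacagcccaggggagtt
Myl7: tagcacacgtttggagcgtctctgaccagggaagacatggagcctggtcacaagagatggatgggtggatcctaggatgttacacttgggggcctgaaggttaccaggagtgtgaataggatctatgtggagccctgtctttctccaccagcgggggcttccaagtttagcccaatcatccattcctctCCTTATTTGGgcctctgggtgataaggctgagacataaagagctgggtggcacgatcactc
Myl4: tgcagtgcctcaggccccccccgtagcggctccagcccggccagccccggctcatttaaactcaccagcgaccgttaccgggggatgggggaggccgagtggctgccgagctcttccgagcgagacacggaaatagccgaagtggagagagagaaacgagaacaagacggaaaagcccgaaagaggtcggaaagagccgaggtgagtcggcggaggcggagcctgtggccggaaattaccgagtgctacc
Mybphl: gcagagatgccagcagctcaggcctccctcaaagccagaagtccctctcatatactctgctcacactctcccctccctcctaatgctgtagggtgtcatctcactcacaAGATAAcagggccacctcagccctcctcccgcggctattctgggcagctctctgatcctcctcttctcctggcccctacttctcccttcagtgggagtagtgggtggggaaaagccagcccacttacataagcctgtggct
The windows are chr6:87428744-87428993 (+) for Bmp10, chr11:5898783-5899032 (-) for Myl7, chr11:104550413-104550662 (+) for Myl4 and chr3:108364661-108364910 (+) for Mybphl. The capitals in Bmp10 are the GATA letters AGATAA, from 219 to 214 and from 33 to 28 bases before the start, and in Mybphl the same letters stand 141 to 136 bases before it. In Myl7 the capitals are a CArG box, the element bound by serum response factor, 61 to 52 bases before the start. In the windows not printed, a CArG box was found 217 to 208 bases before Tmem163 and the nuclear receptor element AGGTCA 8 to 3 bases before Lrrn4. The MEF2 motif and the T-box letters AGGTGT were in 0 of the 7 windows. Of 32851 RefSeq promoter windows of the same length, 9.99% hold the GATA letters, 1.47% a CArG box, 1.69% a MEF2 motif, 11.8% the T-box letters and 14% the nuclear receptor element. The motifs do not overlap in these windows, no motif was found in all of them, and a match says only that the letters are present.

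Myl7, the atrial regulatory light chain, was lowest in the D21 EAM hearts. In D10 controls it was at 125, 70.9, 46.0 and 73.8 CPM, and in D10 EAM hearts at 321, 225, 134 and 430.2 CPM. D15 controls were at 397, 515, 455 and 63.9 CPM, and D15 EAM hearts at 161, 67.1, 371 and 202 CPM. D21 controls held 417, 606, 612 and 389 CPM, while D21 EAM hearts held 0.641, 0.599, 10.8 and 0.497 CPM. The D21 EAM hearts thus lay below the other 20, of which the lowest was D10 control 3 at 46.0 CPM. The 4 D21 EAM hearts held 194 Myl7 reads together, against 42427 in the 4 D21 controls.

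Myl4, the atrial essential light chain, was high and low in nearly the same hearts. Its level was 198, 116, 87.9 and 122 CPM in D10 controls and 525, 441, 229 and 674 CPM in D10 EAM hearts. In D15 controls it was 615, 815, 694 and 97.4 CPM, and in D15 EAM hearts 249.9, 102, 510.4 and 299 CPM. In D21 controls it was 663, 894, 939 and 592 CPM, and in D21 EAM hearts 4.68, 3.49, 19.2 and 3.75 CPM. D21 EAM 3, which had the most Myl7 of its group, also had the most Myl4. Across all 24 hearts the deviations of Myl4 from its group means went with those of Myl7 at Pearson r = 0.98, on log2(CPM + 1), a description over hearts that share libraries and depth.

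Reads of Myl4 per read of Myl7 were 1.59 ± 0.137 (SD) over the 20 hearts outside D21 EAM, with a range from 1.38 to 1.96, while Myl7 itself ran from 46.0 to 612 CPM among them. In D21 EAM 1, 2 and 4 the ratio was 7.31, 5.82 and 7.56, resting on 13, 11 and 9 Myl7 reads, and in D21 EAM 3, with 161 Myl7 reads, it was 1.79. Myl4 thus kept more reads per Myl7 read in 3 of the 4 D21 EAM hearts than in any other heart.

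**Figure D1:**
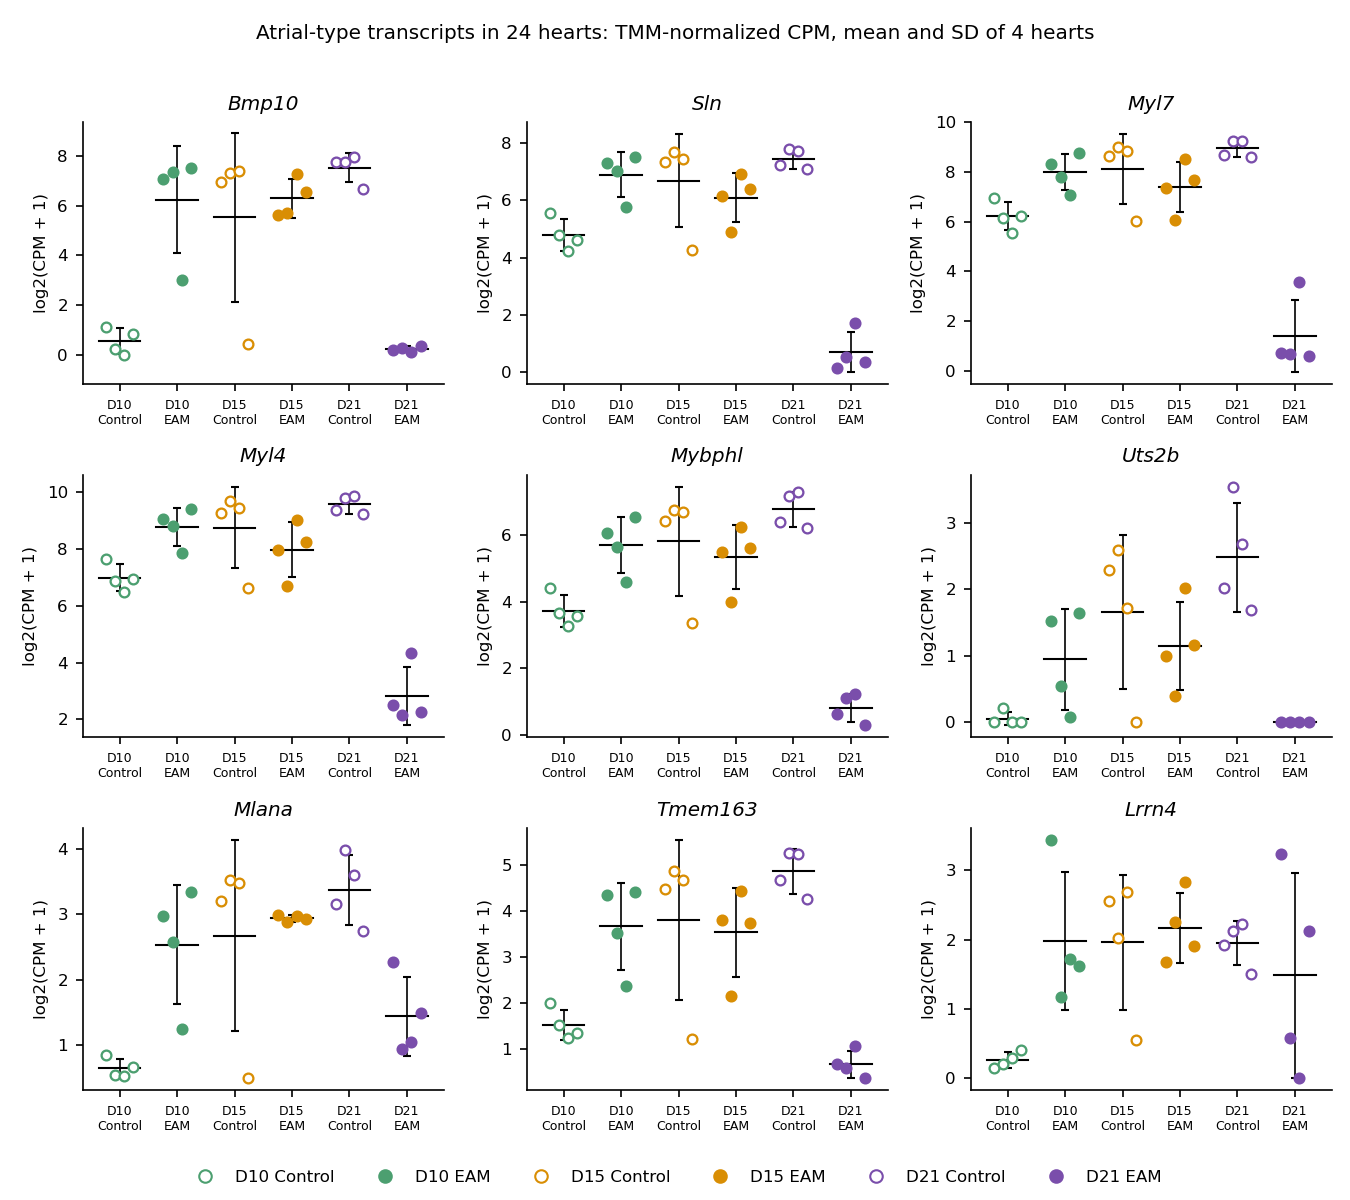
Level of each of the 9 transcripts in every heart as log2(CPM + 1), by group, with open points for control and filled points for EAM hearts, and bars for the mean and SD of 4 hearts. D21 EAM hearts sit near the bottom for all but Mlana and Lrrn4, and D15 control 4, the right-most open point at D15, sits with the D10 controls.

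The share of light chain reads sets the atrial against the ventricular genes within each heart. At D15 the fitted differences of Myl7 and Myl4 were negative and outside the limits, while the mean share was not lower in EAM. Myl7 was 3.46 ± 1.36% of the Myl7 and Myl2 reads in D10 controls and 13.1 ± 6.49% in D10 EAM hearts (SD, n = 4). It was 14.4 ± 7.88% in D15 controls, in which D15 control 4 had 2.77% (Wilson 95% interval 2.61 to 2.94%) and the others from 16.4 to 19.4%, and without that heart, a choice made after seeing the data, the mean was 18.3 ± 1.65% (SD, n = 3). In D15 EAM hearts it was 18.6 ± 5.57%, and most of the gap between the D15 means rested on D15 control 4. It was 20.9 ± 4.78% in D21 controls. D21 EAM 1 had 0.0417% (0.0244 to 0.0713%), D21 EAM 2 0.0299%, D21 EAM 4 0.0472% and D21 EAM 3 0.484% (0.415 to 0.565%). Myl4 as a share of Myl4 and Myl3 reads went the same way, with 24.2 ± 5.08% in D21 controls and 0.334 ± 0.234% in D21 EAM hearts. Counted per kilobase of merged exon, Myl7 was between 38.6 and 53.9% of the Myl7 and Myl2 level in D21 controls and between 0.0986 and 1.58% in D21 EAM hearts. Intervals and floors cover counting error only, since reads are not independent molecules.

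**Figure D2:**
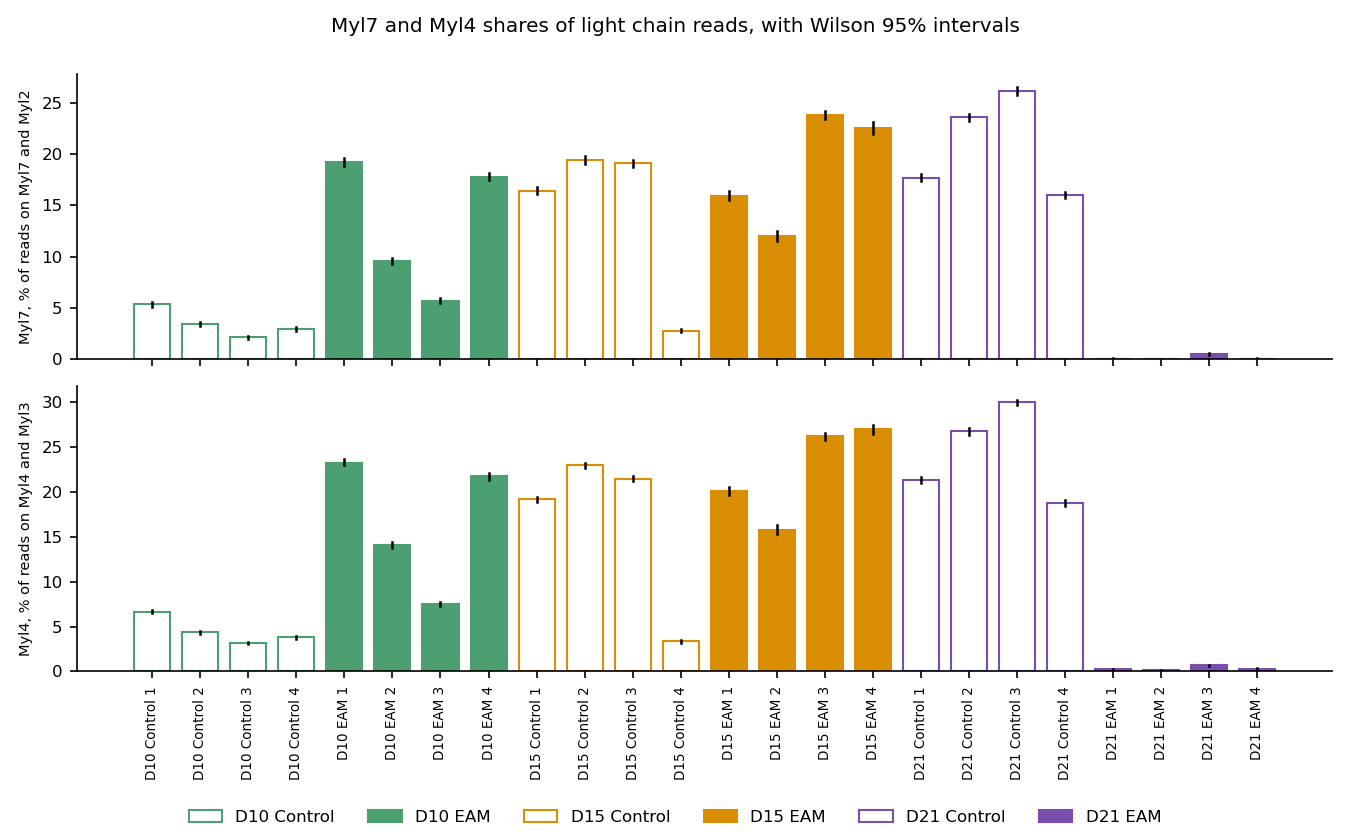
Share of Myl7 in the reads of Myl7 and Myl2 (top) and of Myl4 in those of Myl4 and Myl3 (bottom), in percent, 1 bar a heart starting at 0, with Wilson 95% intervals as black lines. Bars of the 4 D21 EAM hearts are under 1% in both panels, and those of the 4 D10 controls and D15 control 4 are under 7%.

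The ventricular counterparts had other values. Myl2 was at 1938, 1965, 1731 and 2044 CPM in D21 controls and at 1536, 2007, 2210.0 and 1052 CPM in D21 EAM hearts, with overlapping groups. Its D21 fold change was -0.16 on the log2 scale (SE 0.21, edgeR quasi-likelihood adjusted p = 0.577). At D15 both ventricular light chains were lower in EAM, Myl2 by -1.33 (SE 0.24, edgeR adjusted p = 6.77e-04) and Myl3 by -1.45 (SE 0.26, edgeR adjusted p = 6.48e-04). Myl7 and Myl4 at D15 had fold changes of -0.80 and -0.90 with SE of 0.63 and 0.62, and their groups overlapped. In a whole piece of tissue, fewer cells of a type and less RNA per cell cannot be told apart.

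Sln, the sarcolipin gene, was at 46.1, 26.6, 17.7 and 23.2 CPM in D10 controls and at 157, 130.3, 53.1 and 183 CPM in D10 EAM hearts. D15 controls were at 163, 209, 175 and 18.1 CPM, D15 EAM hearts at 69.97, 29.1, 121 and 82.5 CPM, and D21 controls at 150, 221, 209.6 and 136 CPM. D21 EAM hearts had 0.0985, 0.436, 2.27 and 0.276 CPM, which is 49 reads in all against 14984 in the D21 controls. The lowest of the 20 other hearts, D10 control 3, had 17.7 CPM. Sln per Myl7 read was 0.392 ± 0.0646 (SD) over those 20 hearts.

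Among the SERCA pumps and their regulators, 10 of the 11 genes listed were found in the table and tested. At D15, 5 were lower in EAM and 1 higher: Mrln (myoregulin, -2.99, SE 0.49), Hrc (-1.97), Casq2 (calsequestrin, -1.66), Pln (-1.40), the cardiac pump Atp2a2 (-1.21) and the chaperone Calr (calreticulin, 1.1). The median over the 10 was -1.28, against 0.02 over all genes tested. At D21 only Atp2a1, the fast-twitch SERCA1 pump, passed the limits, falling by 4.27 on the log2 scale (SE 0.44, edgeR adjusted p = 0.00337) with a median of -0.36 over the list and -0.01 over all genes. Pln at D21 was at -0.25 (SE 0.23) and Atp2a2 at -0.43 (SE 0.24), neither passing.

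Mybphl was at 20.3, 11.6, 8.59 and 10.9 CPM in D10 controls and at 65.7, 48.6, 23 and 92.0 CPM in D10 EAM hearts. At D15 it was at 84.5, 108, 104 and 9.36 CPM in controls and at 44.2, 14.8, 74.96 and 48.2 CPM in EAM hearts. At D21 controls had 84.2, 143, 156 and 73.5 CPM and EAM hearts 0.542, 1.14, 1.34 and 0.221 CPM. Its 56 reads in D21 EAM hearts stand against 9633 in the D21 controls, and D21 EAM 3 did not have a level apart from the others as it had for the light chains. Of 15 other myosin light chains, heavy chains and binding proteins, 13 were tested, of which 5 were lower at D15 (Myh7b -2.31, Myl3 -1.45, Myl2 -1.33, Myl1 -1.07 and Mybpc3 -1.01) and 0 at D10 and at D21 by the quasi-likelihood test, DESeq2, the likelihood ratio test and limma-voom, with 1 gene at an unadjusted p under 0.05 on each of those days. The list's median was -0.97 at D15, against 0.02 over all genes, and -0.08 at D21, against -0.01.

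Tmem163 ran from 1.30 to 37.5 CPM over the 20 hearts outside D21 EAM. D10 controls had 2.97, 1.84, 1.35 and 1.52 CPM and D10 EAM hearts 19.4, 10.4, 4.18 and 20.3 CPM. D15 controls had 21.3, 27.98, 24.5 and 1.30 CPM, and D15 EAM hearts 12.9, 3.43, 20.7 and 12.4 CPM. D21 controls had 24.5, 37.5, 36.7 and 18.2 CPM, and D21 EAM hearts 0.591, 0.490, 1.07 and 0.276 CPM. It was high and low in much the same hearts as Myl7 (r = 0.85 of the deviations from group means over 24 hearts).

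Bmp10, the secreted ligand, separated the hearts more sharply than the contractile transcripts. D10 controls had 1.14, 0.154, 0 and 0.793 CPM, and D10 EAM hearts 136, 165, 7.13 and 182 CPM. D15 controls had 123, 158, 171 and 0.353 CPM, and D15 EAM hearts 48.9, 51.2, 156 and 94.1 CPM. D21 controls had 219.9, 217, 246 and 100.2 CPM, and D21 EAM hearts 0.148, 0.218, 0.0668 and 0.276 CPM. Bmp10 was therefore at or near 0 not only in the D21 EAM hearts, which held 13 reads together against 16436 in the D21 controls, but also in the 4 D10 controls and D15 control 4.

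Bmp10 and Myl7 did not fall in one proportion. Bmp10 reads per Myl7 read were between 0.258 and 0.763 in the D21 controls, the D15 EAM hearts, D15 controls 1 to 3 and D10 EAM 1, 2 and 4. They were 0.00915, 0.00217, 0 and 0.0107 in D10 controls, 0.00552 in D15 control 4 and 0.0532 in D10 EAM 3. These 6 hearts still held between 46.0 and 134 CPM of Myl7, so that they had the atrial light chain without Bmp10 at the ratio of the other hearts. In D21 EAM 1, 2 and 4 the ratio was 0.231, 0.364 and 0.556, but from 3, 4 and 5 Bmp10 reads, and in D21 EAM 3 it was 0.00621 from 1 read.

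**Figure D3:**
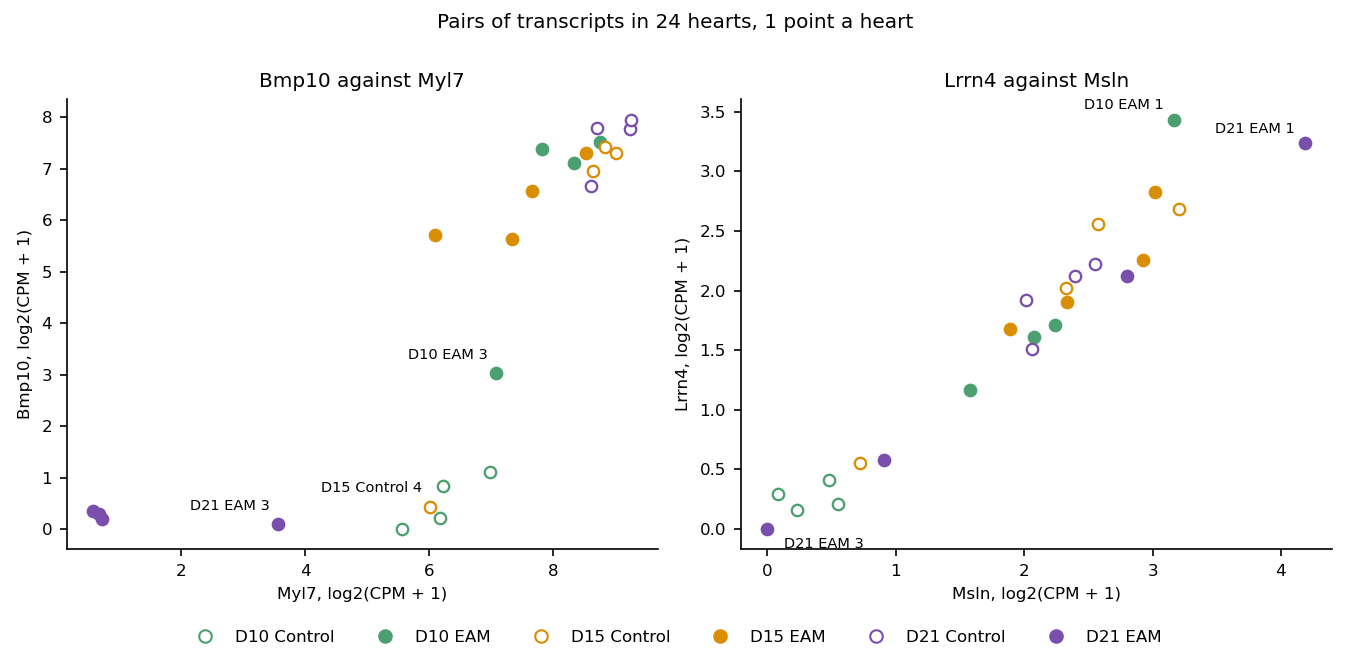
Bmp10 against Myl7 (left) and Lrrn4 against the mesothelial gene Msln (right), both as log2(CPM + 1), 1 point a heart, open for control and filled for EAM. On the left, D10 controls and D15 control 4 lie at intermediate Myl7 with Bmp10 near 0, and D21 EAM hearts lie at low levels of both, while on the right Lrrn4 rises with Msln in EAM and control hearts alike.

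Other genes of the BMP10 pathway were read from a list. Of 16 listed receptors, SMADs, targets and the related ligand Gdf2, 15 were tested, and 0 passed the limits at D10 or D21 by the quasi-likelihood test, DESeq2, the likelihood ratio test or limma-voom. At an unadjusted p under 0.05 there were 6 at D10 and 9 at D21. Of all genes the quasi-likelihood test called 0.0% in either direction at D10, and 4.13% higher and 1.16% lower at D21. At D15, where it called 18.1% of all genes higher and 12.9% lower, 1 of 15 was higher and 1 lower. Id2, a target gene, was higher (1.80, SE 0.15, edgeR adjusted p = 5.32e-06) and Smad9, a signal transducer, was lower (-1.40, SE 0.21, edgeR adjusted p = 2.50e-04), in a comparison in which Bmp10 itself was at -0.33 (SE 0.95). The medians of the list at D10, D15 and D21 were 0.00, 0.00 and -0.12, against -0.01, 0.02 and -0.01 over all genes. The receptor Acvrl1 was at 60.1, 53.2, 53.2 and 68.7 CPM in D21 controls and at 85.3, 76.7, 71.8 and 79.6 CPM in D21 EAM hearts, a fold change of 0.44 (SE 0.11, edgeR adjusted p = 0.0195) that missed the limits. Id1, an immediate target of BMP signalling, was at 0.51 (SE 0.16, edgeR adjusted p = 0.0431) at D21 and missed them too.

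Uts2b had at most 221 reads in a heart, in D21 control 2. It was at 0, 0.154, 0 and 0 CPM in D10 controls, 1.86, 0.453, 0.0557 and 2.11 CPM in D10 EAM hearts, 3.91, 5.02, 2.28 and 0 CPM in D15 controls, and 0.998, 0.315, 3.04 and 1.23 CPM in D15 EAM hearts. D21 controls had 3.05, 10.6, 5.42 and 2.20 CPM, from 448 reads, and the 4 D21 EAM hearts had 0 reads. Taking 3 reads over the 4 D21 EAM hearts as the limit that a count of 0 allows, Uts2b was at least 127-fold lower there. The 6 hearts outside D21 EAM with at most 3 reads were the 4 D10 controls, D15 control 4 and D10 EAM 3. Of its pathway, the paralogue Uts2 had at most 3 reads in any heart and was not tested, and the receptor Uts2r was at 0.16 (SE 0.25) at D10, -1.21 (SE 0.40, edgeR adjusted p = 0.0209) at D15 and -1.39 (SE 0.38, edgeR adjusted p = 0.0256) at D21, outside the limits each time by the quasi-likelihood test, DESeq2 and limma-voom but passing at D15 and D21 by the likelihood ratio test.

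Mlana kept part of its level where the contractile transcripts did not. D10 controls had 0.799, 0.461, 0.449 and 0.595 CPM and D10 EAM hearts 6.89, 4.99, 1.39 and 9.08 CPM. D15 controls had 8.18, 10.5, 10.1 and 0.412 CPM, while the D15 EAM hearts lay close together at 6.91, 6.34, 6.83 and 6.60 CPM. D21 controls had 7.93, 14.7, 11.2 and 5.73 CPM, and D21 EAM hearts 3.84, 0.926, 1.07 and 1.82 CPM. The D21 EAM level of Mlana, unlike that of Myl7 or Tmem163, was above the level of the D10 controls in 4 of 4 hearts, and 14 of the 20 other hearts were above every D21 EAM heart. In D15 EAM 2, where Myl7 was at 67.1 CPM, Mlana per Myl7 read was 0.0945, against 0.0148 to 0.0243 in D21 controls.

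Other genes of pigment cells were mostly at or near 0. Tyr, Tyrp1, Slc45a2, Oca2 and Gpr143, 5 defining genes of the 9 listed, were at 0.154 CPM or less in every heart, and the summed level of the list, most of it Mitf, was between 79.5 and 90 CPM in control hearts of the 3 days and between 46.2 and 83.5 CPM in EAM hearts. At D15 Dct fell by 3.19 (SE 0.23, edgeR adjusted p = 2.37e-06) and Pmel was higher by 1.19 (SE 0.28, edgeR adjusted p = 0.00334), with Pmel at 0.771 CPM or less in all hearts. At D21 0 of 3 tested passed by the quasi-likelihood test, DESeq2, the likelihood ratio test or limma-voom, with 1 at an unadjusted p under 0.05.

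Lrrn4 differed from the others in the D21 EAM hearts, and like them was low in the D10 controls and D15 control 4. D10 controls had 0.114, 0.154, 0.225 and 0.330 CPM, from 2 to 5 reads a heart, and D10 EAM hearts 9.81, 1.25, 2.28 and 2.06 CPM. D15 controls had 4.90, 3.07, 5.44 and 0.471 CPM, D15 EAM hearts 2.20, 3.78, 6.12 and 2.74 CPM, and D21 controls 2.80, 3.36, 3.67 and 1.84 CPM. The D21 EAM hearts had 8.43, 0.490, 0 and 3.37 CPM, so that their range covered those of the controls of each day and of the D15 EAM hearts. With 241 reads in D21 EAM hearts and 245 in D21 controls, Lrrn4 goes against the label atrial-type in those hearts.

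Lrrn4 also went with genes of the mesothelium, the epithelium that covers the heart. Over 24 hearts its deviations from group means correlated at r = 0.96 with Msln (mesothelin) and r = 0.94 with Upk3b (uroplakin 3B), against r = 0.06 with Myl7, 0.44 with Bmp10 and 0.61 with Nppa. Among the other transcripts r with Msln ran from -0.05 for Myl7 to 0.6 for Mlana, with 0.38 for Bmp10, and r with Upk3b from 0.06 for Myl7 to 0.68 for Mlana. In the D21 EAM hearts Msln was at 17.2, 0.872, 0 and 5.96 CPM and Upk3b at 20.5, 0.981, 0.0668 and 6.23 CPM, in the order of hearts of Lrrn4. Of 10 mesothelial and epicardial genes in the table, 8 were tested at D10, 0 passed by the quasi-likelihood test or limma-voom and 4 by DESeq2 and the likelihood ratio test, with 7 at an unadjusted p under 0.05. All 8 fold changes were positive, with Msln at 3.93 (SE 0.60, edgeR adjusted p = 0.261) and Upk3b at 3.37 (SE 0.54, edgeR adjusted p = 0.261). At D15 only the keratin Krt18 passed, higher by 2.89 (SE 0.50, edgeR adjusted p = 5.86e-04), and at D21 0 of 10 passed by that test and limma-voom and 1 by DESeq2 and the likelihood ratio test, with 2 at an unadjusted p under 0.05. The summed level of the list was between 14.8 and 21.3 CPM in D10 controls, 35.3 and 77.0 in D10 EAM hearts, 22 and 76.3 in D15 controls, 37.5 and 74.8 in D15 EAM hearts, 40.1 and 50.6 in D21 controls, and 25.6 and 102 CPM in D21 EAM hearts. In D15 control 4, the heart low in atrial transcripts, Msln was at 0.648 CPM, against 4.01 to 8.23 CPM in the other D15 controls. The part of mesothelium in the Lrrn4 level was not tested.

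At D10, with EAM and control hearts compared, 0 of the 8 transcripts tested passed an FDR under 0.01 with at least a 2-fold change by edgeR's quasi-likelihood test, as for 0.0% of all 15029 genes tested (Uts2b was under the minimum of 10 reads in 4 hearts). At an unadjusted p under 0.05 it was 8 of 8, and by DESeq2 and edgeR's likelihood ratio test 8 of 8, against 0.319% and 0.299% of all genes in that direction, while limma-voom passed 0. The 4 EAM hearts were above the 4 control hearts for 8 of 8, against 4.41% of all genes. Since these values chose the transcripts, nothing is read from the counts. Lrrn4 reached the minimum of 10 reads only in the EAM hearts, so it could be tested only if higher there. Fitted log2 fold changes were 7.90 (SE 1.16) for Bmp10, 4.22 (SE 0.80) for Lrrn4, 3.26 (SE 0.55) for Mlana, 2.81 (SE 0.50) for Tmem163 and 2.19 (SE 0.41) for Sln. They were lowest for Mybphl at 2.15 (SE 0.42), Myl4 at 1.83 (SE 0.35) and Myl7 at 1.81 (SE 0.40). Without D10 EAM 3 the first of these was 8.30 and the last 2.05.

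At D15, 0 of 9 passed in either direction by the quasi-likelihood test, DESeq2, the likelihood ratio test or limma-voom, and 0 of 9 at an unadjusted p under 0.05. Among all 15693 genes tested by the quasi-likelihood test, 12.9% were lower and 18.1% higher. Fold changes ran from -0.99 (SE 0.85) for Uts2b to 0.12 (SE 0.55) for Lrrn4, the groups overlapped for all 9 (34.5% of all genes did not overlap upward and 35.9% downward), and the SE of Bmp10 was 0.95. Without D15 control 4, 0 of 9 passed, and the fold change was -1.14 for Myl7, -1.24 for Myl4, -1.23 for Sln, -1.07 for Mybphl, -0.74 for Bmp10 and -0.23 for Lrrn4.

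At D21, 7 of 9 passed downward and 0 upward, against 1.16% and 4.13% of all 15266 genes tested, and the EAM hearts lay below the control hearts for 8 of 9, against 18.7% of all genes. Again the values had been used to choose the transcripts. Bmp10 and Uts2b passed the filter on low counts only through the D21 controls, so they could be tested only if lower in EAM. The fold change was -10.01 (SE 0.45) for Bmp10, -7.95 (SE 0.64) for Sln, -7.41 (SE 1.03) for Myl7, -7.15 (SE 0.47) for Mybphl, -6.64 (SE 0.64) for Myl4 and -5.59 (SE 0.39) for Tmem163. Uts2b, with 0 EAM reads, has only the bound given above. Mlana was at -2.32 (SE 0.49), outside the limits, and Lrrn4 at 0.13 (SE 0.96). The calls depended on single hearts, as did those over all genes. Without D21 control 1, 2 or 3 the count was 0 of 7 (0.0% of all genes lower) and without D21 control 4 it was 3 of 7 (0.0597%), since Bmp10 and Uts2b then failed the filter on low counts and were not tested. It was 4 of 9 without D21 EAM 1 (0.0664%) and 8 of 9 without D21 EAM 3 (3.5%). Myl7 was at -9.73 and Sln at -9.35 without D21 EAM 3, and Bmp10 was between -10.28 and -9.79 with each EAM heart left out in turn.

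**Figure D4:**
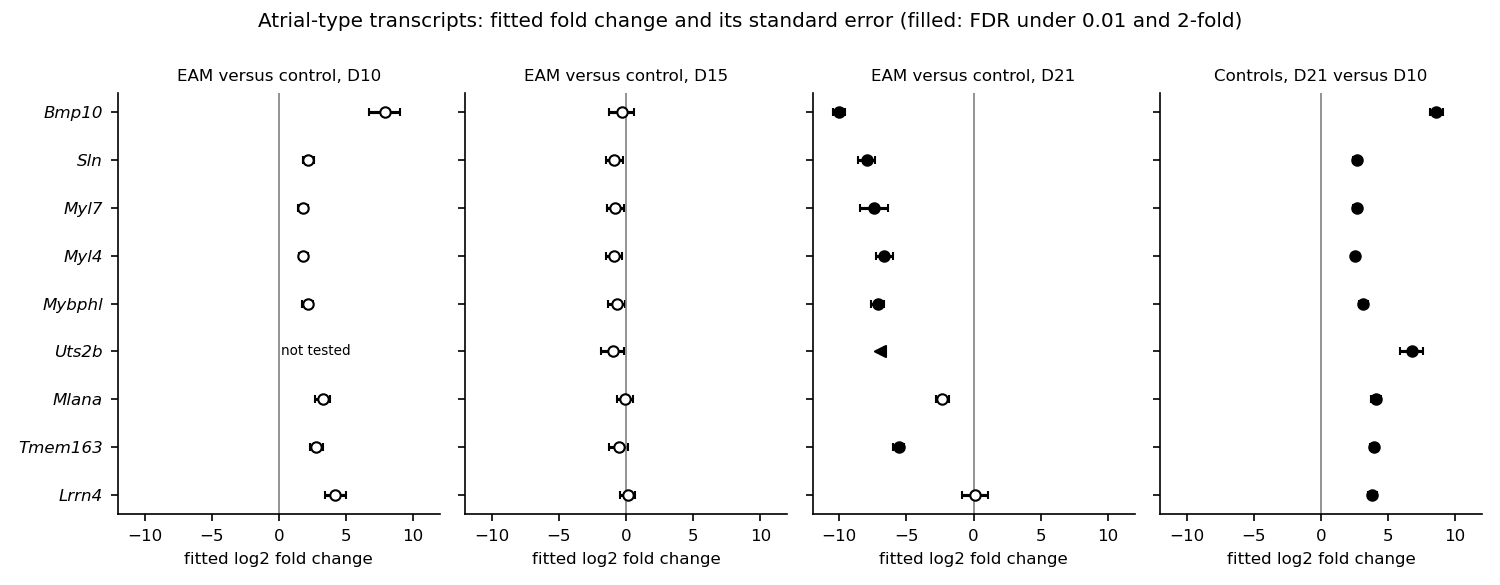
Fitted log2 fold change and standard error, derived from the test statistic, of each transcript for EAM versus control at D10, D15 and D21, and for D21 versus D10 control hearts. Points are filled where FDR was under 0.01 with a 2-fold change. The triangle for Uts2b at D21 is the bound from 3 reads, and values lie right of 0 at D10, near 0 at D15 and left of 0 at D21 except for Lrrn4.

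Fitted differences between EAM and control hearts were positive for 8 of 8 transcripts at D10 and negative for 8 of 9 at D21. Contrasts within 1 fit of 24 hearts describe how they differed between days. From D10 to D15 it was lower for 6 of 9 (7.35% of all genes), by -8.27 for Bmp10, -3.43 for Tmem163, -3.41 for Mlana, -3.11 for Sln, -2.90 for Mybphl and -2.77 for Myl4. From D15 to D21 it was lower for 6 of 9 (0.919% of all genes), by -9.66 for Bmp10, -7.07 for Sln, -6.58 for Myl7, -6.42 for Mybphl, -5.72 for Myl4 and -5.0 for Tmem163. These contrasts share the D15 hearts. The D10 to D15 count rested on single hearts, falling to 1 without any of D10 controls 2 to 4, D10 EAM 4, D15 controls 1 to 3 or D15 EAM 1, 2 or 4, and to 2 without D10 EAM 2, in fits that called from 3.82 to 6.61% of all genes lower, and it was 0 by limma-voom (7.33% of all genes).

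The control hearts themselves differed between days. Between D21 and D10 controls 9 of 9 transcripts were higher at D21 with no overlap, against 0.763% of all genes called higher and 9.13% with no overlap. Lrrn4 and Uts2b passed the filter on low counts only through the D21 controls, so they could be tested only if higher there. The fold change was 8.60 (SE 0.48) for Bmp10, 4.10 (SE 0.35) for Mlana, 3.93 (SE 0.30) for Tmem163, 3.83 (SE 0.35) for Lrrn4 and 3.16 (SE 0.31) for Mybphl. It was 2.69 (SE 0.28) for Myl7, 2.66 (SE 0.27) for Sln and 2.57 (SE 0.24) for Myl4, and Uts2b had 3 reads in 1 of the 4 D10 controls and 0 in the others. In the fit of all 24 hearts 3 of the 9 passed, Bmp10, Mlana and Tmem163, against 0.123% of all genes higher, with 9 of 9 fold changes still positive. Between D15 and D10 controls 0 of 7 tested passed (0.0% of all genes) although 7 of 7 had an unadjusted p under 0.05, and DESeq2 passed 4 (0.214% of all genes, higher) and the likelihood ratio test 7 (0.382%). Without D15 control 4 the quasi-likelihood test passed 7 of 7, against 0.384% of all genes called higher in that fit, with Bmp10 at 8.22 and Myl7 at 2.55. Both comparisons share the D10 controls, as does the comparison with D10 EAM hearts.

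Markers of other cells also differed between control days. Of 8 mesothelial and epicardial genes tested, 4 were higher in D21 than in D10 controls, Msln by 3.80 (SE 0.37, edgeR adjusted p = 5.22e-04), Upk3b by 3.47 (SE 0.35), the uroplakin gene Upk1b by 3.28 (SE 0.46) and Gpm6a by 1.51 (SE 0.14), and 8 of 8 fold changes were positive, with a median of 1.45 against 0.0 over all genes. Their summed level was between 14.8 and 21.3 CPM in D10 controls and between 40.1 and 50.6 CPM in D21 controls, without overlap. In D15 against D10 controls 0 of 7 passed by the quasi-likelihood test and limma-voom and 3 by DESeq2 and the likelihood ratio test, with 7 of 7 positive and at an unadjusted p under 0.05. Of 7 vascular smooth muscle genes, 0 passed by any of the 4 tests in D21 against D10 controls, with 7 positive and at an unadjusted p under 0.05, a median of 0.51 and a summed level between 550 and 1030 CPM in D10 and 1120 and 1210 CPM in D21 controls. The conduction gene Cacna2d2 was higher by 1.67, the 1 called of 11 on its list, and 0 of 9 leucocyte genes passed by any of the 4 tests, with 4 at an unadjusted p under 0.05 and a median of -0.55. The part of these cells in the difference between control days was not tested.

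Other genes were read from lists of atrial and ventricular genes. These lists were also drawn up with earlier results of these data known, so their counts are a description. Of 14 other atrial cardiomyocyte genes, 9 were lower in EAM at D21 and 0 higher. They included Sbk2 (-3.62, SE 0.43, edgeR adjusted p = 0.00450), Stard10 (-2.86, SE 0.29, edgeR adjusted p = 0.00337), Nppa, the atrial natriuretic peptide gene (-2.45, SE 0.38, edgeR adjusted p = 0.00588), and Dkk3 (-2.44, SE 0.36, edgeR adjusted p = 0.00545). The median of the 14 was -1.26, against -0.01 over all genes, and 14 of 14 were negative. With D21 controls 1, 2, 3 or 4, or D21 EAM 1 or 2, left out, the count was 0 of 14, in fits that called at most 0.212% of all genes lower. Nppa kept more of its level than Myl7: it was at 642, 851, 732 and 554 CPM in D21 controls and at 175, 51.1, 99.9 and 171 CPM in D21 EAM hearts, in which Myl7 was at most 10.8 CPM.

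The same 14 genes were also read at D10 and D15. At D10 0 of 14 passed by the quasi-likelihood test and limma-voom, 8 had an unadjusted p under 0.05, and 3 passed by DESeq2 and 3 by the likelihood ratio test, with a median of 0.36 and fold changes of 2.29 (SE 0.42) for Nppa, 1.82 (SE 0.36) for Dkk3, 1.19 (SE 0.25) for Stard10 and 1.01 (SE 0.31) for Sbk2. At D15 3 passed, all lower, the potassium channel genes Kcnk3 (-1.75, SE 0.17), Kcnj3 (-1.50, SE 0.39) and Kcnj5 (-1.11, SE 0.23), with a median of -0.85 against 0.02. That count was 1 without D15 control 2 and 5 without D15 control 4 or D15 EAM 3. In D15 control 4 Nppa was at 60.5 CPM and Dkk3 at 35.5 CPM, near the D10 controls at 56.9 to 137 and 33.5 to 44.1 CPM, and far from the other D15 controls. In D21 against D10 controls 6 of the 14 were higher and 0 lower, Nppa by 2.96 and Dkk3 by 2.59.

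Ventricular genes were lower in EAM at D15. At D21 0 of 8 passed by the quasi-likelihood test, DESeq2, the likelihood ratio test and limma-voom, with 2 at an unadjusted p under 0.05 and a median of -0.22. At D15 6 of 8 were lower, with a median of -1.37, led by Kcnip2 (-2.76, SE 0.48, edgeR adjusted p = 5.63e-04), an accessory subunit of a ventricular potassium channel, and Fhl2 (-1.75, SE 0.13, edgeR adjusted p = 2.73e-06). Of 12 cardiomyocyte genes of all chambers, 7 were lower at D15 and 0 at D21 by the quasi-likelihood test and limma-voom, with 4 at an unadjusted p under 0.05 and 1 by DESeq2 and the likelihood ratio test. At D15 they included Actc1 (-1.45, SE 0.16), Tnni3 (-1.33, SE 0.23), Atp2a2 (-1.21, SE 0.27) and Tnnc1 (-1.10, SE 0.15). In D21 against D10 controls 0 of 8 ventricular and 0 of 12 all-chamber genes passed by any of the 4 tests, with 3 and 4 at an unadjusted p under 0.05.

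**Figure D5:**
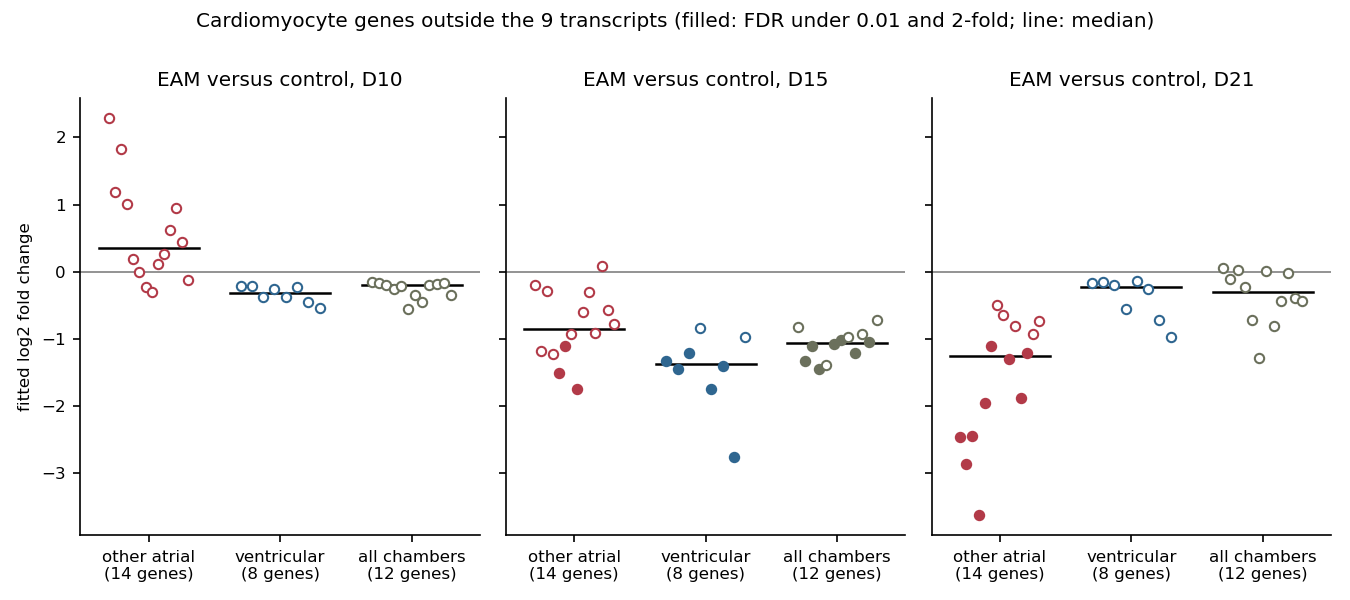
Fitted log2 fold change of EAM versus control at D10, D15 and D21 for 14 other atrial, 8 ventricular and 12 all-chamber cardiomyocyte genes, 1 point a gene, filled where FDR was under 0.01 with a 2-fold change, with the median as a line. At D21 the atrial median is -1.26 and the ventricular -0.22, and at D15 the ventricular median is -1.37.

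Other cell types of the atria were read beside the D21 loss. Of 12 sinoatrial node and conduction genes, 11 were tested at D21 and 3 were lower: Cacna2d2 (-3.05, SE 0.50, edgeR adjusted p = 0.00653), Cacna1g (-1.44) and Vsnl1, which had 0 reads in the 4 D21 EAM hearts and was at least 24.5-fold lower. The list's median was -1.44, with Vsnl1 at its fitted value or at its bound, against -0.01 over all genes, and the pacemaker channel Hcn4 was at -1.50 (SE 0.30, edgeR adjusted p = 0.0101), just outside the limits. At D15 Hcn4 fell by 1.93 (SE 0.29). Of 10 autonomic neuron genes, at D21 3 were tested, of which 0 passed by the quasi-likelihood test, 2 had an unadjusted p under 0.05 and 1 passed by DESeq2 and the likelihood ratio test, and at D15 Dbh fell by 2.01 (SE 0.28). The other 3 genes tested at D15 had positive fold changes outside the limits, Prph at 1.68 and Uchl1 at 0.82 among them, and the list's median was 0.68 against 0.02 over all genes. Chat, the enzyme that makes acetylcholine, was at 0.154 CPM or less in every heart.

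Leucocyte genes were higher in EAM at D15 and D21. Of 10 listed, 9 were higher at D15 and 7 of 9 tested at D21, with Ptprc (CD45) at 3.98 (SE 0.12) and 2.58 (SE 0.46), and 0 passed by any of the 4 tests at D10 (6 at an unadjusted p under 0.05), where Ptprc was at 1.35 (SE 0.55). Their summed level was between 3290 and 4700 CPM in D15 EAM hearts, in which Myl7 was between 67.1 and 371 CPM, and between 1190 and 4010 CPM in D21 EAM hearts. Of 7 vascular smooth muscle genes, Acta2 (-1.51), Smtn (-1.34) and Myocd (-1.04) were lower at D15 and 0 passed at D21 by the quasi-likelihood test, with 3 at an unadjusted p under 0.05 and 1 by DESeq2 and the likelihood ratio test. Of 8 skeletal muscle genes, 4 were tested at D15, and Tnnt3 was higher by 1.27 (SE 0.34). That direction was not shared by the list. The median of the 4 was -0.02, Acta1 was at -0.68 (SE 0.15, edgeR adjusted p = 0.00240), outside the 2-fold limit, and the summed level of the 8 was lower in EAM, between 1100 and 1710 CPM, than in control hearts, between 2060 and 2300 CPM. At D21 0 of 4 passed by any of the 4 tests (2 at an unadjusted p under 0.05), where their summed level was between 2560 and 3550 CPM in EAM and 1530 and 2260 CPM in control hearts. The part of these cells in the atrial levels was not tested.

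The genes most like the transcripts, by Pearson r between a gene's deviations from its group means and the mean standardized deviation of the 9 over 24 hearts, were Fgf12 (r = 0.979), Sbk3 (0.960), Sytl2 (0.929), Podn (0.928), Sds (0.921), Plekha7 (0.921), Cpne5 (0.916), Atp2a1 (0.914), Stard10 (0.912) and Gm13054 (0.909), of 14282 genes whose mean reached 1 CPM. Sbk3, an SH3-domain binding kinase gene, had a mean of 169 CPM in D21 controls, 20.7 CPM in D10 controls and 3.16 CPM in D21 EAM hearts. Fgf12, a fibroblast growth factor homologue that binds sodium channels, had 41.5, 4.87 and 0.927 CPM. Of these 10, 9 remained without D15 control 4 and D10 EAM 3, 8 by Spearman's rho and 6 without subtracting group means.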

How the data were processed

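RNA from 24 mouse hearts was sequenced as 75 bp read pairs. The authors aligned them to GRCm38 with HISAT2 2.0.4, removed duplicates with Picard, and deposited raw featureCounts counts for Ensembl genes, not normalized. Sample files and full table differed in 0 cells. Of 41480 features, 92 are spike-in controls with 0 reads. Transcripts and gene lists were chosen with earlier results of these data known.

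Fits were made with edgeR 4.0.16, DESeq2 1.42.0 and limma 3.58.1 under R 4.3.3, and tables and plots with Python 3.11.15. For each comparison, a gene was kept if 4 or more of its hearts had 10 reads or more. After TMM scaling, edgeR's quasi-likelihood test was applied, and p-values were adjusted by Benjamini-Hochberg over every gene tested. The SE of a fold change is the absolute log2 fold change divided by the square root of the test's F statistic. It was derived from the test and is not an error estimated from the reads of that gene alone. Calls needed an FDR under 0.01 and a 2-fold change. Contrasts between days came from 1 fit of 24 hearts. Genes named are the 9 transcripts, up to 4 called genes a list with the largest fold changes, 10 fixed genes, the 10 most alike and, beyond this rule, other called genes of the lists and defining markers. Other tests, normalizations, filters, limits and control sets, a replicate block, and leaving out each heart were tried. In simulated counts, of 200 genes changed 4-fold, 87.5% were recovered at D10 among 14895 genes, 94.5% at D15 among 15512 and 92.0% at D21 among 15133. Only genes above a minimum mean count were changed, and no simulated heart was set apart from its group. The shares therefore do not give the power for the 9 transcripts, and in the real hearts 0.0% of all genes were called at D10. The p-values set a difference between groups against the spread between these samples, estimated with information from all genes. For contrasts between days that spread was shared by all groups. A few genes of the lists are not reported here by name.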

Additional observations from a re-analysis of the deposited data

Results flagged for a closer look

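In 12 of 54 groups of 4 hearts, 1 per transcript and group, a single heart stood apart by Dixon's criterion. These levels also chose the transcripts, and the groups are not independent, since the transcripts share hearts and vary together. The count is therefore a description and is not set against a chance rate. D15 control 4 was the lowest of its group for Bmp10 (0.353 CPM), Sln (18.1 CPM), Myl7 (63.9 CPM), Myl4 (97.4 CPM), Mybphl (9.36 CPM), Mlana (0.412 CPM) and Tmem163 (1.30 CPM). D10 EAM 3 was the lowest for Bmp10 at 7.13 CPM, and D21 control 4 the lowest for Bmp10 at 100.2 CPM. D21 EAM 3 was the highest for Myl7 (10.8 CPM) and Myl4 (19.2 CPM). D10 control 2, at 0.154 CPM, was the 1 D10 control with a Uts2b read.

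The difference between EAM and control hearts changed between days past the limits for 6 transcripts each time, on values that also chose the transcripts. Of all genes, 7.35% were lower from D10 to D15 and 0.919% from D15 to D21. From D10 to D15 the log2 change was -8.27 for Bmp10, -3.43 for Tmem163, -3.41 for Mlana, -3.11 for Sln, -2.90 for Mybphl and -2.77 for Myl4. That count of 6 was 0 by limma-voom (7.33% of all genes lower). It was from 1 to 7 with each heart left out in turn (3.82 to 10.7% of all genes lower). From D15 to D21 the log2 change was -9.66 for Bmp10, -7.07 for Sln, -6.58 for Myl7, -6.42 for Mybphl, -5.72 for Myl4 and -5.0 for Tmem163.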

How the results depend on the processing

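No result changed direction past its limits under the alternatives run. The transcripts called at D10 numbered 8 by DESeq2 (0.319% of all genes higher) and 8 by the likelihood ratio test (0.299%), against 0 (0.0%). For the D10 to D15 change there were 0 by limma-voom (7.33% of all genes lower), against 6 (7.35%). For D15 against D10 controls there were 4 by DESeq2 (0.214% of all genes higher) and 7 by the likelihood ratio test (0.382%), against 0 (0.0%). There were also 1 at an FDR under 0.05, 2 without a low-count filter and 1 in the fit of 24 hearts, for which no share of all genes is given here. For D21 against D10 controls there were 3 in the fit of 24 hearts (0.123% of all genes higher), against 9 (0.763%). Of the list genes outside the transcripts, 7 were called at D10 by DESeq2, by the likelihood ratio test and with all 12 controls, against 0. At D15 there were 84 at an FDR under 0.05, against 45, and at D21 48 at that limit, 10 by limma-voom and 31 in the fit of 24 hearts, against 20. Other atrial genes numbered 3 at D10 by DESeq2 and by the likelihood ratio test, 8 at D15 at an FDR under 0.05, and 4 at D21 with all 12 controls, and ventricular genes 1 at D21 at an FDR under 0.05. Mlana in D15 EAM hearts averaged 7.38 CPM when scaled by total counts, and 6 of the 10 most alike genes were shared without subtracting group means. The cause was not tested.

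With each heart left out in turn, transcripts called ranged from 0 to 0 at D10 and D15, 0 to 8 at D21, 1 to 7 for the D10 to D15 change, 6 to 7 for the D15 to D21 change, 0 to 7 for D15 and 7 to 9 for D21 against D10 controls. In those fits 0.0% of all genes were called at D10. The share called lower was 11.1 to 14.9% at D15 and 0.0 to 3.5% at D21. It was 3.82 to 10.7% for the D10 to D15 change and 0.472 to 2.74% for the D15 to D21 change. Against D10 controls, 0.0 to 0.384% were higher at D15 and 0.342 to 0.714% at D21. Without a D21 control, 7 of the 9 were tested at D21 and against D10 controls. Other atrial genes ranged from 0 to 0 at D10, 1 to 5 at D15 and 0 to 10 at D21, ventricular genes from 0 to 0, 5 to 7 and 0 to 1, and list genes from 0 to 0, 32 to 50 and 0 to 35.

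The labels do not tie the replicate numbers to a shared animal, batch or day, and the hearts were not treated as pairs. Same-numbered EAM and control hearts deviated together at r from -0.0642 to 0.323 at D10, -0.0928 to 0.0402 at D15 and 0.0841 to 0.261 at D21. With the number as a replicate block, 1 transcript was called at D10 (0 without it), 1 for the D10 to D15 change (6 without it) and 1 for D15 against D10 controls (0 without it). The share of all genes called in the block fits is not given here, so nothing is read from these counts. A count of 0 allows 3 reads, or 0.105 to 0.2 CPM in a single heart and 0.0418 CPM over the 4 D21 EAM hearts, the limit behind the Uts2b bound.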
